A study of Mus musculus with 9 samples.

Results

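The 41 genes described here act in the cell cycle and in DNA replication, and they were followed library by library in RNA-seq of whole mouse cortex at postnatal day 0 (P0). They were chosen by gene symbol from a table of 24624 genes. Each symbol matched 1 gene, and all 41 passed the filter on low values (a mean of at least 10 over the 9 libraries), as did 16197 genes in all. By the step at which their products act, 17 belong to G1 and S phase and 24 to G2 and mitosis. Pups of 3 genotypes were born to crosses between *Fezf2*+/- mice and *Fezf2*+/- mice that also carried the *Fezf2-EnR* transgene. The *Fezf2*+/+ group held 3 libraries and served as the wild-type control. The *Fezf2*-/- group held 4 libraries from pups without a functional copy of *Fezf2*, a zinc-finger transcription factor of radial glia and deep-layer projection neurons, and its null allele carries a PLAP (placental alkaline phosphatase) reporter. The third group, *Fezf2*-/-; *Fezf2-EnR*, held 2 libraries from pups that lack *Fezf2* and carry a bacterial artificial chromosome in which the DNA-binding domain of FEZF2, joined to the repressor domain of engrailed, is expressed from the *Fezf2* start codon. It is called the *Fezf2-EnR* group here, and its transgene follows *Fezf2* expression and is not confined to 1 cell type. Each library came from the cortex of 1 mouse, so that p-values measure the spread between mice.

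A dividing cell passes from G1 through S phase, in which the genome is copied once, to G2 and mitosis. D-type and E-type cyclins and the transcription factor E2F1 drive entry into S phase, the MCM helicase is loaded on origins by CDC6 and CDT1 and unwinds DNA, and cyclin A and cyclin B with CDK1 bring the cell into mitosis, where kinases, kinetochore proteins and the spindle part the chromosomes until the anaphase-promoting complex ends the phase. In the cortex around birth most cells are postmitotic neurons, and the dividing cells are mainly radial glia, intermediate progenitors and glial precursors, so that RNA of cell cycle genes in whole tissue comes from a minority of cells. In whole tissue, more dividing cells and more RNA per dividing cell cannot be told apart.

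The libraries held between 18716575 and 25127623 reads assigned to genes, as recovered from the table, and values are counts divided by a size factor of the library (normalized read counts). The labels name 3 litters. Litter m1 gave *Fezf2*+/+ replicates bc201 and bc202 and *Fezf2*-/- replicates bc205 and bc206, litter m2 gave *Fezf2*+/+ replicate bc203 and *Fezf2-EnR* replicate bc209, and litter m3 gave *Fezf2*-/- replicates bc204 and bc207 and *Fezf2-EnR* replicate bc208. *Fezf2* itself was at 979 to 1232 in *Fezf2*+/+, at 193 to 242 in *Fezf2*-/- and at 907 and 1001 in the *Fezf2-EnR* libraries, whose transgene carries part of the gene. *Xist*, expressed from the inactive X chromosome, was at 7895 to 12203 in *Fezf2*+/+ replicate bc201 and both *Fezf2-EnR* libraries and at 0 to 58.9 in the rest, and the Y-linked *Ddx3y* was at 0 to 4.22 in these 3 and at 1169 to 1600 in the others, so sex-linked expression cannot be told apart from the transgene in a comparison with *Fezf2*-/-. Replicate bc209 stood apart over all genes tested, being the highest of the 9 libraries in 21.8% of them and the lowest in 21.3%. Neuronal genes were abundant, as the label of cortex implies, with a summed value of the 11 mature-neuron markers between 132856 and 146662, while the 7 choroid plexus markers summed to 10 to 34.

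Per kilobase of exon, and so comparable between genes, the level in *Fezf2*+/+ was highest for *Pcna*, the sliding clamp of DNA polymerase, at 452 normalized counts per kilobase. *Ccnd2*, a cyclin that drives G1 in radial glia, followed with 420, ahead of the helicase subunit gene *Mcm7* with 268 and of *Rrm2*, a subunit of ribonucleotide reductase, with 208. The median over the 41 genes was 35.9. The 3 lowest genes were *Birc5*, the survivin gene, with 14.3, *Ttk*, a kinase of the spindle checkpoint, with 12.2 and *Cdc6* with 5.04. The 8 highest genes all act in G1 and S phase. The reads behind these values ranged from 25 for *Cdc6* to 5721 for *Ccnd2* in a library.

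The DNA just before the start of these genes is shown for 4 members, because many cell cycle promoters share short motifs. RefSeq promoters of GRCm38.p6 were matched for 33 of the 41 genes, and *Ccna2*, *Aurkb*, *Tpx2*, *Mcm4*, *Gins2*, *Ccne2*, *Ccnd1* and *Ccnd2* had no entry. The RefSeq start lay within 100 bases of the GENCODE start of the gene in 28 of the 33, and farther from it in *Cdc6*, *Cdca8*, *E2f1*, *Mcm7* and *Pcna*, whose windows are therefore uncertain. In the 250 bases before the start, on either strand, CCAAT (the core bound by NF-Y) was found in 25 of the 33 members, or 75.8%, against 37.5% of 27025 genes. Among G2 and mitosis members it was in 18 of 21, or 85.7%, and among G1 and S phase members in 7 of 12, or 58.3%. TTTGAA, a form of the cell cycle genes homology region, was in 9 of the 33 (27.3%, against 18.3% of all genes), and 8 of these were G2 and mitosis members. At least 1 of the motifs TTCCCGC, then TTGGCGC, then TTCGCGC, letters of E2F sites, was in 9 of the 33 (27.3%, against 7.68% of all genes). These shares describe letters in a window and say nothing of binding. The 150 bases before the start are printed on the gene's own strand with these motifs, or their reverse complements, in capitals. *Mki67* (chr7:135716380-135716529, minus strand) and *Top2a* (chr11:99024190-99024339, minus strand) stand for the mitotic members with the highest read counts, and *Hmmr* (chr11:40733438-40733587, minus strand) for the highest log2 fold change. *Mcm6* (chr1:128359706-128359855, minus strand) is the helicase gene whose values went with the litter.
Mki67: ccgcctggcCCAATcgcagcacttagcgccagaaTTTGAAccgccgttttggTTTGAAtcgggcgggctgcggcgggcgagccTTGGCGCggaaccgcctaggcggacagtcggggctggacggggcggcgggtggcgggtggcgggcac
Top2a: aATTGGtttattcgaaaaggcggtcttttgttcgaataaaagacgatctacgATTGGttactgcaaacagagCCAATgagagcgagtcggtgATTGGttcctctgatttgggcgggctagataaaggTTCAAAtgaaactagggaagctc
Hmmr: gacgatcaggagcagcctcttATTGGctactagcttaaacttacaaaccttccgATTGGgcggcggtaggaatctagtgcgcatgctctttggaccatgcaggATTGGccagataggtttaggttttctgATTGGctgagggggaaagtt
Mcm6: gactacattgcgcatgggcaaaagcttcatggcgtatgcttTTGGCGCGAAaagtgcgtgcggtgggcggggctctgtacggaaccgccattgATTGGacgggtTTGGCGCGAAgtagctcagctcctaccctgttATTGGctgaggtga

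*Hmmr* and *Top2a* each held 4 CCAAT boxes in the window shown, and *Mki67* held all 3 kinds of motif. In *Mcm6* the capitals hold TTGGCGC and the reverse complement of TTCGCGC, which overlap, at 2 places.

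Across the 9 libraries the 41 genes had their highest values in *Fezf2-EnR* replicate bc209. The median of log2(value + 1) over the 41 genes, taken relative to the mean of *Fezf2*+/+, was 0.58 in replicate bc209 and 0.23 in replicate bc208. The same median was 0.27, 0.07, 0.08 and -0.15 in the *Fezf2*-/- replicates bc204, bc205, bc206 and bc207, and 0.10, 0.05 and -0.17 in the *Fezf2*+/+ replicates bc201, bc202 and bc203. Replicate bc204 therefore lay above replicate bc208, and the pooled SD of these medians within a genotype was 0.18. Replicate bc209 was the highest of the 9 libraries in 30 of the 41 genes, against 21.8% of all genes, and replicate bc204 in 6, against 8.82% of all genes. The lowest library was *Fezf2*+/+ replicate bc203 in 14 of the 41 (10.2% of all genes) and *Fezf2*-/- replicate bc207 in 12 (11.3% of all genes). The spread was wider for the 24 G2 and mitosis genes, whose summed value was 3485 to 4947 in *Fezf2*+/+, 3790 to 5271 in *Fezf2*-/-, and 5160 and 7073 in the *Fezf2-EnR* libraries.

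**Figure D1:**
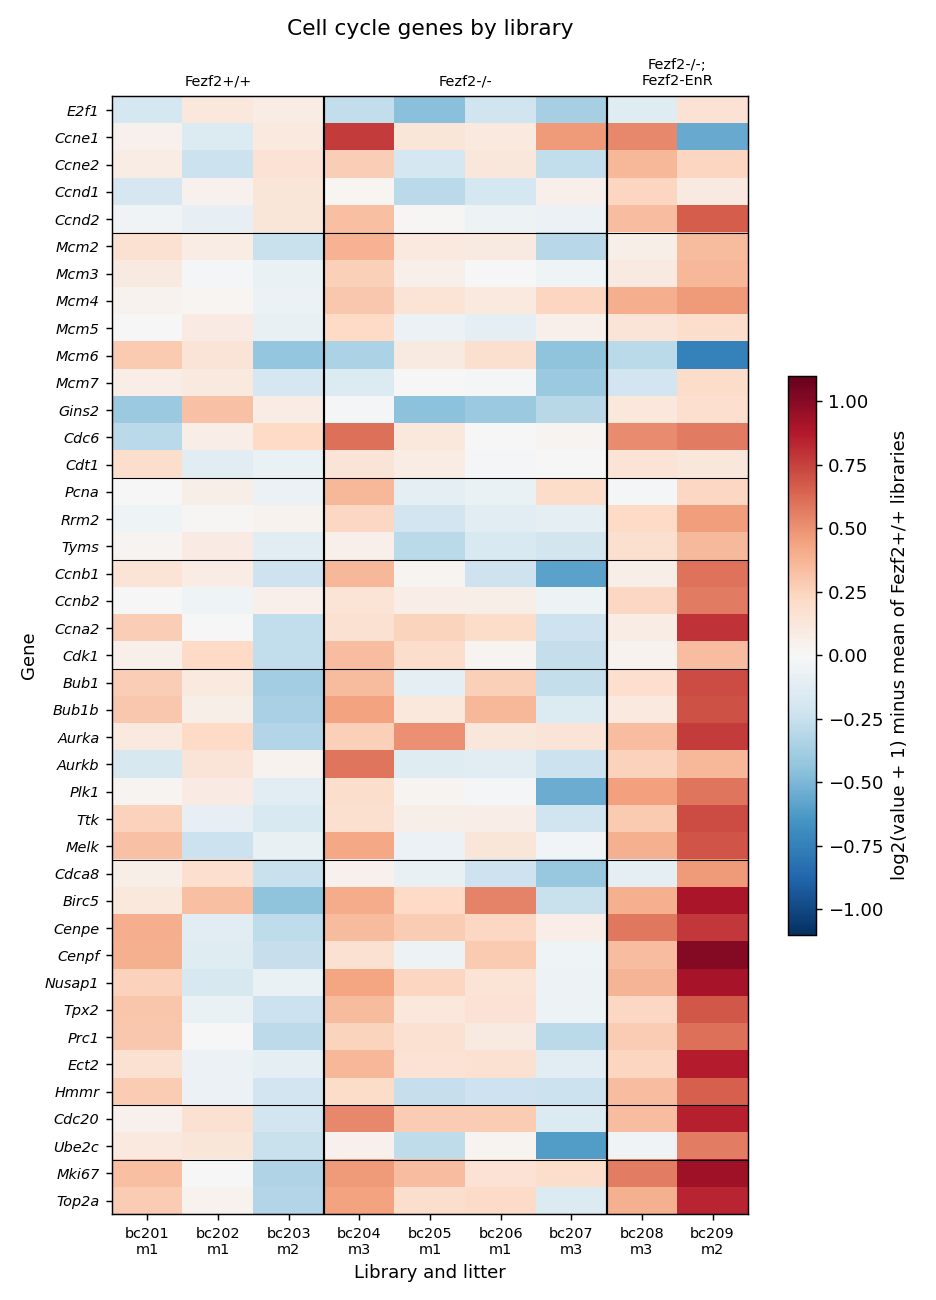
Heat map of log2(value + 1) of the 41 genes (rows, grouped by role) in the 9 libraries (columns, with litter), each relative to the mean of the 3 *Fezf2*+/+ libraries (colour scale in log2 units, red higher). The right-hand column, *Fezf2-EnR* replicate bc209, was the highest library in 30 of the 41 genes, and *Mcm6* and *Ccne1* were low in it.

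The first comparison asked how these genes stood in *Fezf2*-/- cortices with and without the *Fezf2-EnR* transgene. By *Xist* and *Ddx3y* the pups with the transgene were female and those without it male, so sex and transgene cannot be told apart here. All 24 G2 and mitosis genes stood higher with the transgene on average, by a median log2 fold change of 0.41, and the 17 G1 and S phase genes had a median of 0.24, with *Mcm6* and *Ccne1* below 0. None of the 41 genes was called with limma (adjusted p under 0.05, by Benjamini and Hochberg's method over all genes tested), in a comparison in which 0.766% of all genes were called. The smallest adjusted p of a member was 0.141, for *Ccnd2* (limma). At an unadjusted p under 0.05, 13 of the 41 (31.7%) were found, all higher in the *Fezf2-EnR* group, against 16.9% of all genes in either direction and 7.87% higher. The 2 *Fezf2-EnR* libraries lay above all 4 *Fezf2*-/- libraries in 14 genes (34.1%, against 12% of all genes). Over the 41 genes, 39 were above 0 on the log2 scale (50.5% of all genes were), the median was 0.36 and the range was -0.39 to 0.62, beside a median of 0.003 over all genes tested. These genes were put together after proliferation genes had been seen to be higher in these same *Fezf2-EnR* libraries, so that their common direction is not independent evidence. On recovered reads, edgeR called 0 of the 41 (0.704% of all genes) and DESeq2 called 1, *Ccnd2* (adjusted p = 0.0285 with DESeq2), where 3.08% of all genes were called by DESeq2.

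This difference rested largely on 1 library. Without replicate bc209 the median over the 41 genes was 0.17 and 0 of them had an unadjusted p under 0.05 in limma, where 6.67% of all genes did and 0.130% were called. Without replicate bc208 the median was 0.52, with 23 of the 41 (56.1%) at that threshold, where 24.4% of all genes were. *Cenpf* and *Ccnd2* were then called (limma adjusted p = 0.0464 and 0.0392), which is 4.88% of the 41 beside 6.72% of all genes, so that calls were no more frequent among the 41 than among all genes. These fits hold 1 *Fezf2-EnR* library, which was assumed to vary like the other groups. The value was higher in replicate bc209 than in replicate bc208 in 36 of the 41 genes, against 51.3% of all genes, and the 5 exceptions were *Mcm6*, *Cdt1*, *Ccne1*, *Ccne2* and *Ccnd1*, which all act in G1 and S phase. Without *Fezf2*-/- replicate bc204, 21 of the 41 (51.2%, against 16.3% of all genes) reached an unadjusted p under 0.05. Within litter m3, replicate bc208 lay above both of its *Fezf2*-/- littermates in 18 of the 41 genes (32% of all genes did) and below both in 1, *Pcna* (34.2% of all genes did), with a median difference of 0.18. With litter as a block the median was again 0.36, with 12 of the 41 (29.3%, against 13.3% of all genes) at an unadjusted p under 0.05 and none called by limma, which called 0.543% of all genes.

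**Figure D2:**
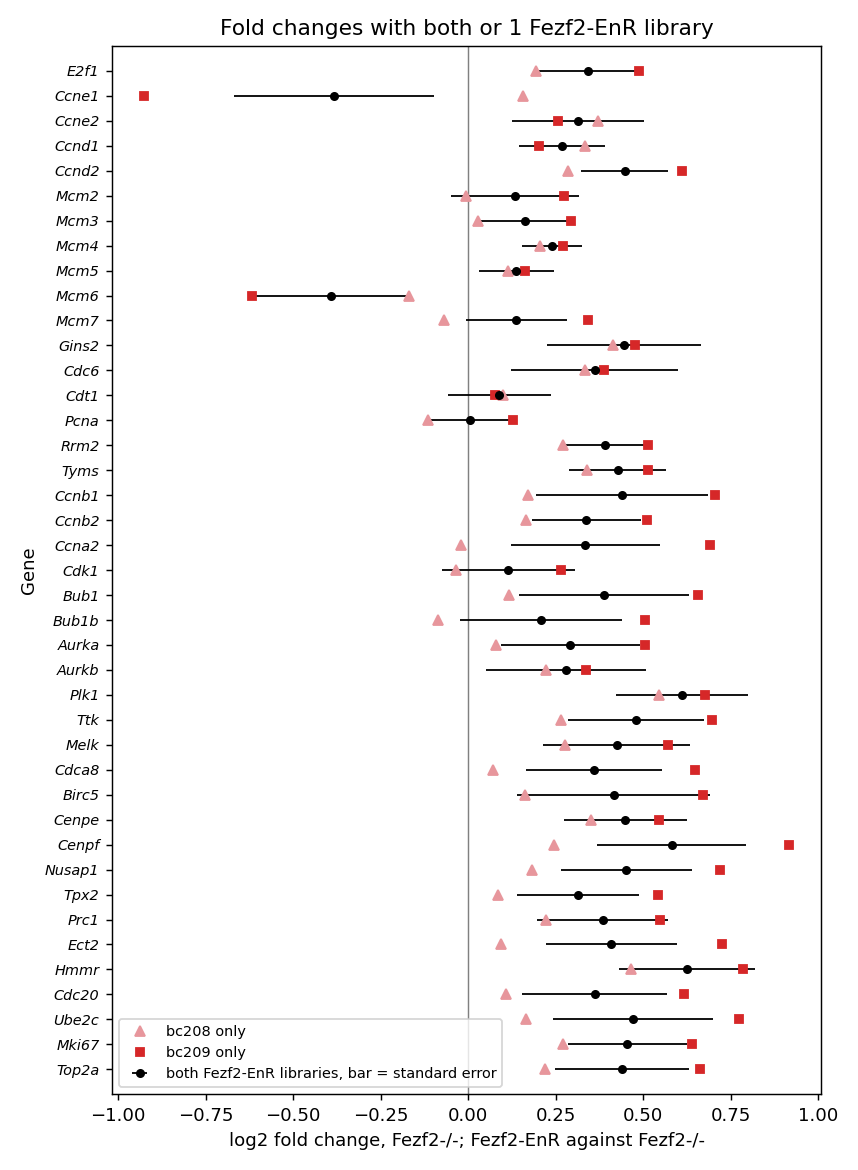
Log2 fold change of each of the 41 genes in *Fezf2*-/-; *Fezf2-EnR* against *Fezf2*-/- (horizontal axis), from both *Fezf2-EnR* libraries (black, bar = limma standard error) and from each library alone (squares bc209, triangles bc208). The squares lay to the right of the triangles in all genes but *Mcm6*, *Cdt1*, *Ccne1*, *Ccne2* and *Ccnd1*, and the median was 0.52 for the squares and 0.17 for the triangles.

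The second comparison set the *Fezf2-EnR* group against *Fezf2*+/+. By *Xist* and *Ddx3y* both *Fezf2-EnR* pups were female, as was *Fezf2*+/+ replicate bc201, while *Fezf2*+/+ replicates bc202 and bc203 were male. Sex was thus unevenly spread between these groups as well. Here too limma called none of the 41 genes, where 0.117% of all genes were called, and the smallest adjusted p of a member was 0.0963, for *Mcm4* (limma). At an unadjusted p under 0.05 there were 19 genes (46.3%), all higher in the *Fezf2-EnR* group, against 19.3% of all genes in either direction and 10.5% higher. Of these 19, 16 were among the 24 G2 and mitosis genes, whose median log2 fold change was 0.50, and 3 among the 17 G1 and S phase genes, whose median was 0.17. Both *Fezf2-EnR* libraries lay above all 3 *Fezf2*+/+ libraries in 22 genes (53.7%, against 17.3% of all genes). On recovered reads, edgeR called 0 of the 41 genes (0.0926% of all genes) and DESeq2 called 5, *Mki67*, *Top2a*, *Cenpe*, *Mcm4* and *Ccnd2*, where 5.58% of all genes were called by DESeq2. Over the 41 genes, 38 were above 0 (49.1% of all genes were). The median was 0.40, and it was 0.23 without replicate bc209, with 4 genes (9.76%, against 11.9% of all genes) at an unadjusted p under 0.05. Without replicate bc208 it was 0.58, with 24 such genes (58.5%, against 23.1% of all genes) and 1 called, *Ccnd2* (limma adjusted p = 0.049), or 2.44% of the 41 beside 3.03% of all genes. In litter m2, which holds 1 library of each of these genotypes, replicate bc209 lay above replicate bc203 in 38 of the 41 genes (51.1% of all genes did) and below it in 3 (48.9% did), with a median difference of 0.71 over all 41 and of 0.94 over the G2 and mitosis genes. Replicate bc209 was female and replicate bc203 male, so sex and transgene cannot be told apart in this pair.

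The third comparison was *Fezf2*-/- against *Fezf2*+/+. The genes stood close together in these groups, with a median log2 fold change of 0.06 and a range of -0.33 to 0.37. With limma, edgeR and DESeq2 none of the 41 was called, where limma called 0.858% of all genes, edgeR 0.877% and DESeq2 1.95%. The 4 *Fezf2*-/- libraries lay above all 3 *Fezf2*+/+ libraries in 2 of the 41 genes (6.53% of all genes did) and below them in 1 (6.46% did). At an unadjusted p under 0.05 in limma there were 2 genes (4.88%, against 10.8% of all genes), *Mcm4*, which was higher in *Fezf2*-/-, and *E2f1*, which was lower. Within litter m1, which holds 2 libraries of each genotype, the median over the 41 genes was -0.01, and both *Fezf2*-/- libraries lay above both *Fezf2*+/+ libraries in 4 genes and below both in 12 (21.2% and 20.0% of all genes). The 3 comparisons share libraries, so that they are not independent of one another.

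The members are given next by role, with normalized read counts in the order of *Fezf2*+/+ replicates bc201 to bc203, *Fezf2*-/- replicates bc204 to bc207 and *Fezf2-EnR* replicates bc208 and bc209. Log2 fold changes are on the log2(value + 1) scale, with the limma standard error, and with all 9 libraries in the fit no adjusted p of a member was under 0.05 in limma.

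Among genes of G1 and of entry into S phase, *Ccnd2* (chr6:127125162-127152193, minus strand) had the smallest p in *Fezf2-EnR* against *Fezf2*-/-. Its values were 3837, 3704 and 4313 in *Fezf2*+/+, 4959, 3990, 3782 and 3760 in *Fezf2*-/-, and 4989 and 6251 in the *Fezf2-EnR* libraries. Both *Fezf2-EnR* libraries were above the rest, although replicate bc208 exceeded *Fezf2*-/- replicate bc204 only narrowly. The log2 fold change was 0.45 (SE 0.12, limma adjusted p = 0.141, two-sided exact permutation p = 0.067, the lowest possible with 15 splits) against *Fezf2*-/- and 0.50 (SE 0.13, limma adjusted p = 0.127) against *Fezf2*+/+. *Ccnd1*, the related cyclin D1 gene, was at 436 to 588 in the 7 libraries without the transgene and at 629 and 574 in the *Fezf2-EnR* libraries, a log2 fold change of 0.27 (SE 0.12) against *Fezf2*-/-. *E2f1*, which encodes an activator of S phase genes, was at 152, 188 and 184 in *Fezf2*+/+, at 144, 126, 149 and 135 in *Fezf2*-/-, and at 158 and 194 in the *Fezf2-EnR* libraries. All 4 *Fezf2*-/- libraries were thus below the other 5, and *E2f1* was the 1 member whose *Fezf2*-/- libraries lay below every *Fezf2*+/+ library. Its log2 fold change was -0.33 (SE 0.12, unadjusted p = 0.0214, limma adjusted p = 0.349, two-sided exact permutation p = 0.029, the lowest possible with 35 splits) in *Fezf2*-/- against *Fezf2*+/+ and 0.34 (SE 0.14, limma adjusted p = 0.255) in *Fezf2-EnR* against *Fezf2*-/-. With litter as a block these were -0.26 (limma adjusted p = 0.548) and 0.25 (limma adjusted p = 0.496). The cyclin E genes differed from each other. *Ccne2* was at 106 and 97.2 in the *Fezf2-EnR* libraries and at 68.1 to 99.4 in the rest, whereas *Ccne1* was at 93.6 in replicate bc208 and at 43.7, its lowest value of the 9 libraries, in replicate bc209.

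The 9 genes of replication licensing and of the helicase had a median log2 fold change of 0.14 in *Fezf2-EnR* against *Fezf2*-/-. Of them 1, *Mcm4*, had an unadjusted p under 0.05 in limma (11.1%, against 16.9% of all genes). *Mcm4* (chr16:15623897-15637400, minus strand) encodes a subunit of the MCM ring. Its values were 392, 387 and 364 in *Fezf2*+/+, 467, 422, 410 and 448 in *Fezf2*-/-, and 503 and 527 in the *Fezf2-EnR* libraries. The 3 genotypes did not overlap, with *Fezf2*+/+ lowest and the *Fezf2-EnR* group highest. The log2 fold change was 0.19 (SE 0.08, limma adjusted p = 0.379) in *Fezf2*-/- against *Fezf2*+/+, 0.24 (SE 0.09, limma adjusted p = 0.215) in *Fezf2-EnR* against *Fezf2*-/-, and 0.43 (SE 0.09, unadjusted p = 0.000641, limma adjusted p = 0.0963) in *Fezf2-EnR* against *Fezf2*+/+. Leaving out a library moved *Mcm4* little, to between 0.40 and 0.47 in the last comparison, and DESeq2 called it there (adjusted p = 0.0103). The other ring subunits *Mcm2*, *Mcm3* and *Mcm5* had log2 fold changes of 0.13 (SE 0.18), 0.16 (SE 0.12) and 0.14 (SE 0.11) in *Fezf2-EnR* against *Fezf2*-/-. *Mcm7* had 0.14 (SE 0.14), with libraries from 890 to 1274 in the groups without the transgene and 1022 and 1358 with it. *Gins2*, a part of the GINS complex that travels with the helicase, was at 63.7 and 66.7 in the *Fezf2-EnR* libraries and at 42.5 to 58.2 in *Fezf2*-/-, but reached 73.7 in *Fezf2*+/+, and 2758 bases of its exons are shared with *Gse1* on the other strand. *Cdc6* and *Cdt1*, the loading factors, had log2 fold changes of 0.36 (SE 0.24) and 0.09 (SE 0.15).

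*Mcm6* (chr1:128331590-128359664, minus strand) encodes another ring subunit, and its values followed the litter. Its values were 1031, 930 and 630 in *Fezf2*+/+, 664, 904, 954 and 623 in *Fezf2*-/-, and 688 and 504 in the *Fezf2-EnR* libraries. The 4 libraries of litter m1 were at 904 to 1031, those of litter m2 at 504 and 630 and those of litter m3 at 623 to 688, so litter m1 lay above all others regardless of genotype. No other member separated litter m1 in this way, as 4.75% of all genes did with litter m1 above and 6.67% with it below. In the limma fit with genotype and litter, litter m3 against m1 had a log2 difference of -0.45 (SE 0.09, limma adjusted p = 0.0243), where 4.13% of all genes were called, and litter m2 against m1 had -0.75 (SE 0.10, limma adjusted p = 0.0101), where 1.25% were called. *Mcm6* was the only member called in either, in limma and in edgeR with the same terms, and the comparison of litter m2 with m1 and the edgeR fit were added after its values had been seen. Its log2 fold change in *Fezf2-EnR* against *Fezf2*-/- was -0.39 (SE 0.23, limma adjusted p = 0.398) without litter, -0.02 with litter as a block and 0.10 within litter m3. After *Mcm6*, the smallest p between litters m3 and m1 were those of *Mcm7*, *Ccne1*, *Ccnd1* and *Ccna2*, and none of these genes was called. Their log2 differences were -0.37, 0.67, 0.29 and -0.45 (limma adjusted p = 0.0628, 0.0721, 0.0805 and 0.164). Litter m1 held no *Fezf2-EnR* library.

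**Figure D3:**
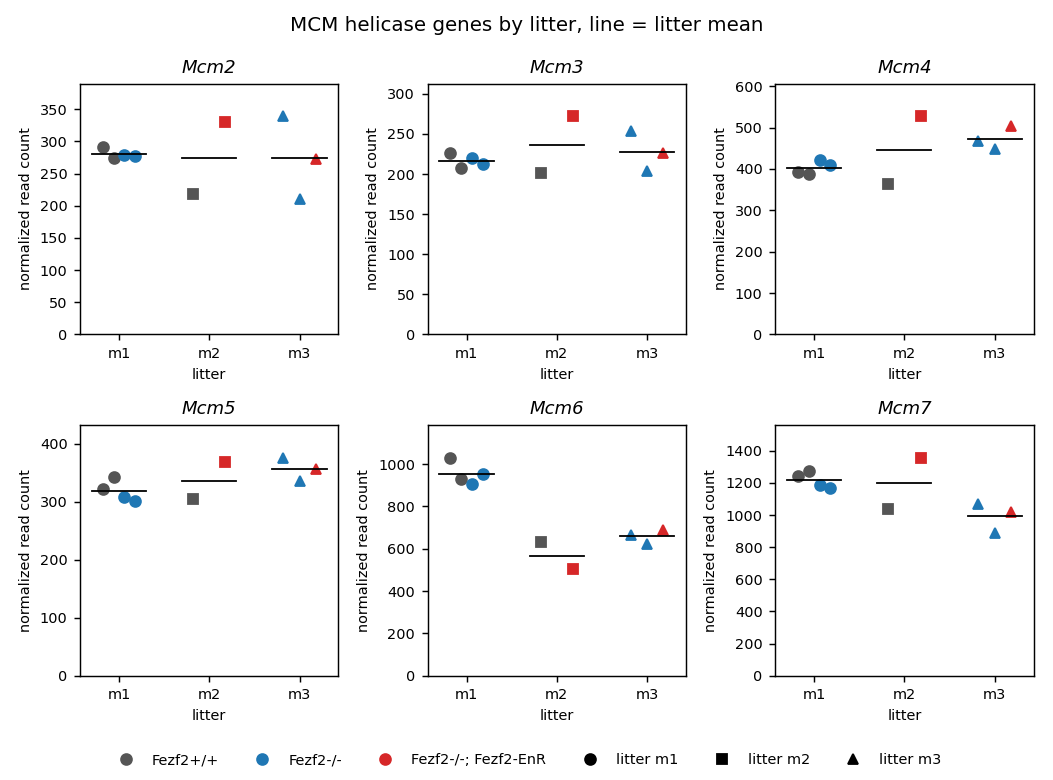
Normalized read counts (vertical axes, from 0) of the 6 MCM helicase genes by litter, with 1 point per library, colour for genotype and a line at the litter mean. In *Mcm6* the 4 libraries of litter m1 lay at 904 to 1031 and the other 5 at 504 to 688, while in none of the other 5 genes did litter m1 lie above all other libraries.

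The 3 genes of DNA synthesis and nucleotide supply did not go together. *Rrm2* was at 556, 579 and 591 in *Fezf2*+/+, at 673, 496, 531 and 537 in *Fezf2*-/-, and at 670 and 793 in the *Fezf2-EnR* libraries. Replicate bc204 exceeded replicate bc208, and the other *Fezf2*-/- libraries lay below both *Fezf2-EnR* libraries. Its log2 fold change was 0.39 (SE 0.12, limma adjusted p = 0.171) against *Fezf2*-/- and 0.34 (SE 0.13, limma adjusted p = 0.19) against *Fezf2*+/+. *Tyms*, which encodes thymidylate synthase, was at 129 and 146 in the *Fezf2-EnR* libraries and at 92.6 to 121 in all others, with a log2 fold change of 0.43 (SE 0.14, limma adjusted p = 0.186) against *Fezf2*-/-. *Pcna* was at 1071 and 1267 in the *Fezf2-EnR* libraries and at 1009 to 1396 in the rest, with a log2 fold change of 0.01 (SE 0.13).

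**Figure D4:**
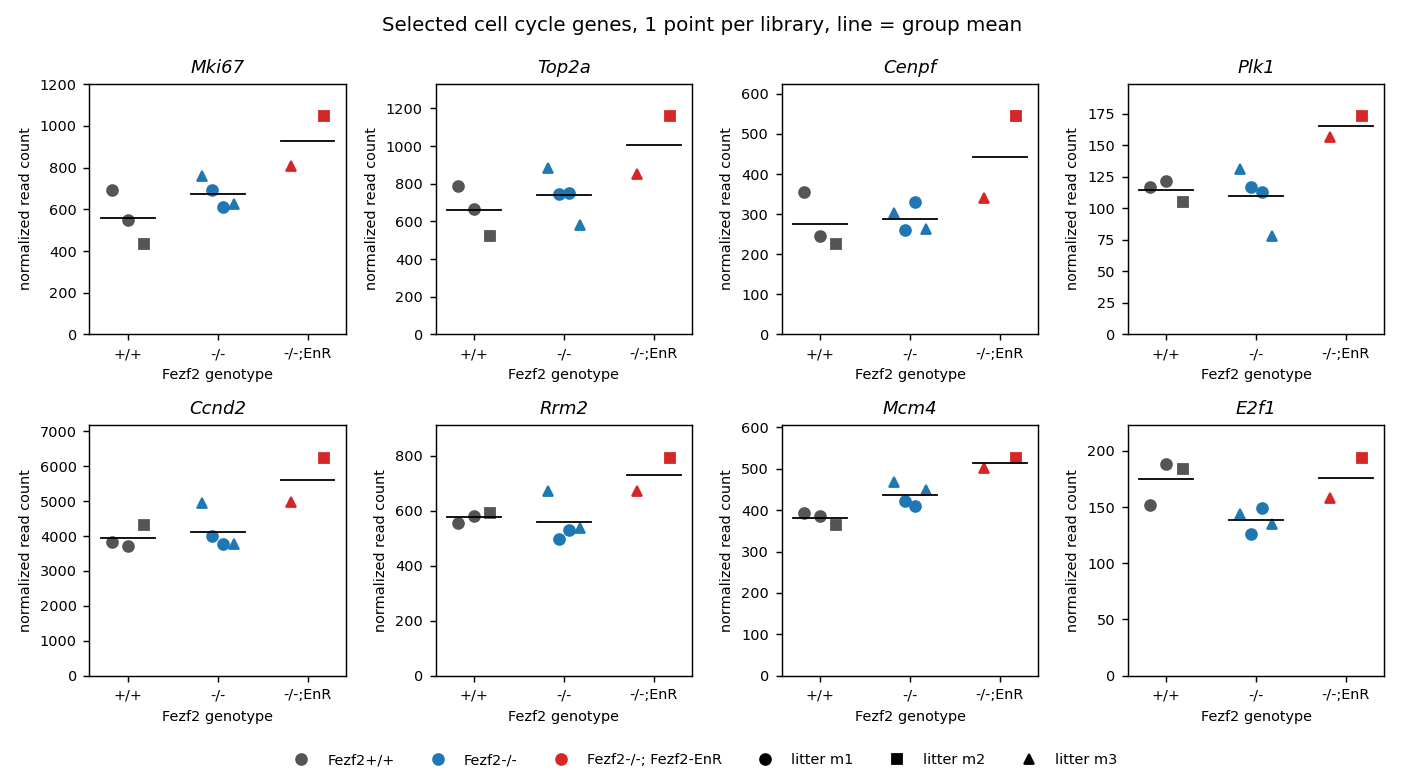
Normalized read counts (vertical axes, from 0) of 8 selected cell cycle genes by *Fezf2* genotype, with 1 point per library, the shape giving the litter and a line at the group mean. Replicate bc209 (red square) was the highest point in each panel, and replicate bc208 (red triangle) lay above all *Fezf2*-/- libraries in *Mki67*, *Cenpf*, *Plk1*, *Ccnd2*, *Mcm4* and *E2f1*. The selection does not stand for all 41 genes, in which replicate bc209 was the highest library in 30. Both *Fezf2-EnR* libraries lay above all *Fezf2*-/- libraries in 14 of the 41 (34.1%, against 12% of all genes).

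Of the 2 genes of the chromosome surface and of DNA topology, *Mki67* (chr7:135689784-135716361, minus strand) encodes Ki-67, which coats mitotic chromosomes and is the usual marker of dividing cells. Its values were 692, 549 and 435 in *Fezf2*+/+, 758, 695, 613 and 627 in *Fezf2*-/-, and 809 and 1046 in the *Fezf2-EnR* libraries. Both *Fezf2-EnR* libraries were above all others, and the lowest value was that of *Fezf2*+/+ replicate bc203, the littermate of replicate bc209. The log2 fold change was 0.45 (SE 0.17, limma adjusted p = 0.224) against *Fezf2*-/- and 0.74 (SE 0.18, unadjusted p = 0.00175, limma adjusted p = 0.115) against *Fezf2*+/+, the highest of the 41 in that comparison. DESeq2 called the latter (adjusted p = 0.00674). *Top2a* (chr11:98992943-99024189, minus strand), the topoisomerase that untangles replicated chromosomes, was at 788, 666 and 520 in *Fezf2*+/+, at 882, 744, 752 and 583 in *Fezf2*-/-, and at 853 and 1158 in the *Fezf2-EnR* libraries. Replicate bc204 exceeded replicate bc208 here, so that *Fezf2*-/- and the *Fezf2-EnR* group overlapped. Its log2 fold change was 0.44 (SE 0.19, limma adjusted p = 0.282) against *Fezf2*-/- and 0.62 (SE 0.20, limma adjusted p = 0.162) against *Fezf2*+/+.

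The 4 genes of cyclin A and B and of their kinase *Cdk1* had log2 fold changes of 0.11 to 0.44 against *Fezf2*-/-. None had an unadjusted p under 0.05 in limma, where 16.9% of all genes did. *Ccnb2* was at 67.7 and 86.3 in the *Fezf2-EnR* libraries and at 55.6 to 64.3 in the rest. *Ccna2* was at 445 in replicate bc209 and at 271 in replicate bc208, within the 212 to 310 of the other libraries. *Ccnb1* was at 188 in replicate bc208, within the 119 to 232 of *Fezf2*-/-, and at 273 in replicate bc209. *Cdk1* was at 144 in replicate bc208, within the 117 to 178 of *Fezf2*-/-, and at 178 in replicate bc209. In *Ccnb1*, *Ccna2* and *Cdk1* the high value was thus that of replicate bc209, and in *Cdk1* *Fezf2*-/- replicate bc204 stood at the same value.

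Among the 7 genes of mitotic kinases and of the spindle checkpoint, *Plk1* (chr7:122159439-122169873, plus strand), a kinase of mitotic entry and spindle assembly, had the highest log2 fold change against *Fezf2*-/-. Its values were 117, 122 and 105 in *Fezf2*+/+, 131, 117, 113 and 78.1 in *Fezf2*-/-, and 157 and 173 in the *Fezf2-EnR* libraries. Both *Fezf2-EnR* libraries stood clear of all others, and *Fezf2*-/- replicate bc207 was the lowest. The log2 fold change was 0.61 (SE 0.19, limma adjusted p = 0.171) against *Fezf2*-/-, between 0.46 and 0.70 over the fits without 1 library, and 0.52 (SE 0.20, limma adjusted p = 0.197) against *Fezf2*+/+. *Ttk* was at 72.7 and 98.3 in the *Fezf2-EnR* libraries and at 50.7 to 71.0 in the rest, with 0.48 (SE 0.19, limma adjusted p = 0.254) against *Fezf2*-/-. Aurora kinase A gene *Aurka*, *Bub1*, *Bub1b* and *Melk* had positive log2 fold changes of 0.21 to 0.42 against *Fezf2*-/- with an unadjusted p above 0.05, and *Aurka* and *Melk* were under it against *Fezf2*+/+, with 0.55 and 0.54, both above *Plk1* there. *Aurkb*, the kinase gene of the chromosomal passenger complex, was highest in *Fezf2*-/- replicate bc204, at 101, and at 79.7 and 86.3 in the *Fezf2-EnR* libraries.

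The 9 genes of the kinetochore, the spindle and cytokinesis had a median log2 fold change of 0.42 against *Fezf2*-/- and of 0.55 against *Fezf2*+/+. Of them, 4 and 8 had an unadjusted p under 0.05 in limma (44.4% and 88.9%, against 16.9% and 19.3% of all genes). *Hmmr* (chr11:40701395-40733422, minus strand), a spindle-associated hyaluronan receptor, had the highest log2 fold change of the 41 genes against *Fezf2*-/-, 0.62 (SE 0.19, limma adjusted p = 0.173). Its values were 96.3, 75.8 and 68.5 in *Fezf2*+/+, 91.4, 66.5, 67.8 and 67.3 in *Fezf2*-/-, and 101 and 126 in the *Fezf2-EnR* libraries. Both *Fezf2-EnR* libraries were the highest, with *Fezf2*+/+ replicate bc201 and *Fezf2*-/- replicate bc204 next. *Cenpf* (chr1:189640606-189688086, minus strand), a large kinetochore protein, was at 354, 246 and 226 in *Fezf2*+/+, at 304, 260, 330 and 262 in *Fezf2*-/-, and at 341 and 544 in the *Fezf2-EnR* libraries. Only replicate bc209 was far above the rest, and *Fezf2*+/+ replicate bc201 exceeded replicate bc208. *Cenpf* had 0.58 (SE 0.21, limma adjusted p = 0.22) against *Fezf2*-/-, which was 0.92 with replicate bc209 alone and 0.25 with replicate bc208 alone. *Cenpe*, a kinesin of the kinetochore, was at 228 and 261 in the *Fezf2-EnR* libraries and at 125 to 201 in the other 7, with 0.45 (SE 0.18, limma adjusted p = 0.241) against *Fezf2*-/- and 0.68 (SE 0.19, limma adjusted p = 0.135) against *Fezf2*+/+. *Nusap1*, which bundles spindle microtubules, was at 187 and 272, where replicate bc204 reached 196, and had 0.45 (SE 0.19, limma adjusted p = 0.265). The log2 fold changes against *Fezf2*-/- of *Birc5*, *Cdca8*, *Tpx2*, *Prc1* and *Ect2* lay between 0.31 and 0.42, with an unadjusted p above 0.05, and against *Fezf2*+/+ all of these but *Cdca8* were under it. *Cdca8*, a partner of survivin in the passenger complex, was at 137 in replicate bc208, within the 110 to 168 of the groups without the transgene, and at 205 in replicate bc209.

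Both genes of the anaphase-promoting complex, its activator *Cdc20* and its ubiquitin-conjugating enzyme *Ube2c*, were highest in replicate bc209. *Cdc20* was at 130 and 186 in the *Fezf2-EnR* libraries, where replicate bc204 reached 148, with a log2 fold change of 0.36 (SE 0.21) against *Fezf2*-/- and of 0.60 (SE 0.22, limma adjusted p = 0.184) against *Fezf2*+/+. *Ube2c* was at 111 and 169, and at 73.9 to 125 in the other 7, with 0.47 (SE 0.23) and 0.26 (SE 0.24).

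Exons of 13 of the 41 genes overlap those of another annotated gene, and in 7 of them, *Gins2*, *Ccnd1*, *Prc1*, *Ccne2*, *Mcm7*, *Ccna2* and *Ube2c*, by at least 10% of the exon length in all. Whether the counting used strand is not stated, so that values of these 7 are uncertain.

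Other genes of the same pathways, from lists that leave out the 41, gave smaller medians. Of 56 further S phase and replication genes, limma called 0 in each comparison, and the median log2 fold change was 0.13 in *Fezf2-EnR* against *Fezf2*-/-, 0.02 in *Fezf2*-/- against *Fezf2*+/+ and 0.08 in *Fezf2-EnR* against *Fezf2*+/+, with 8, 2 and 14 genes at an unadjusted p under 0.05 (14.3%, 3.57% and 25.0%, against 16.9%, 10.8% and 19.3% of all genes). *Dnmt1*, the maintenance DNA methyltransferase, had the highest level of them and stood 0.16 higher on the log2 scale in *Fezf2-EnR* than in *Fezf2*-/- (limma adjusted p = 0.402). Of 62 further mitosis genes, 0 were called by limma, and the medians were 0.29, 0.03 and 0.31, with 14, 2 and 17 genes (22.6%, 3.23% and 27.4%) at an unadjusted p under 0.05. Of 23 tested genes on a list of CDK inhibition and cell cycle exit, 0 were called by limma, with medians of 0.13, 0.02 and 0.08. At that p there were 3, 2 and 9 genes (13%, 8.70% and 39.1%). This list also holds *Cdk4*, *Cdk6* and the D-type cyclin gene *Ccnd3*, which act in entry into S phase. Its values are therefore not those of inhibitors and exit genes alone. *Cdk4* was at 3235 in replicate bc209 and at 2349 to 3026 in the other 8 libraries. *Cdkn1b*, the p27 inhibitor, was at 3419 in replicate bc209 and at 2517 to 2855 in the other 8.

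Markers of cell types that could carry these transcripts were set beside them, and their part in the values was not tested. Of 6 tested genes of intermediate progenitors, all 6 were above 0 on the log2 scale in *Fezf2-EnR* against *Fezf2*-/-. The summed value of the list was 4833 to 5128 in *Fezf2*+/+, 4396 to 4793 in *Fezf2*-/-, and 5271 and 6831 in the *Fezf2-EnR* libraries. Most of this sum was *Elavl4*, at 3939 and 4673 in the *Fezf2-EnR* libraries and at 3205 to 4054 in the rest, so the sum mainly follows that 1 gene. *Insm1* was at 528 in replicate bc208, within the 483 to 604 of *Fezf2*-/-, and at 1010 in replicate bc209. *Eomes*, the defining transcription factor gene of these progenitors, was at 182, 135 and 91.7 in *Fezf2*+/+, at 119, 120, 108 and 59.0 in *Fezf2*-/-, and at 260 and 506 in the *Fezf2-EnR* libraries. It was called (log2 fold change 1.88, SE 0.36, limma adjusted p = 0.0426), and 7 of the 9 fits without 1 library did not call it, among them the fit without replicate bc209 (1.40, limma adjusted p = 0.551). *Neurog1* of the same list was at 0 in 6 libraries and at up to 2.19 in the rest. The 13 radial glia genes summed to 26412 to 31583 in *Fezf2*+/+, 32135 to 37262 in *Fezf2*-/-, and 37481 and 36341 in the *Fezf2-EnR* libraries. Their median log2 fold change was 0.09 in *Fezf2-EnR* against *Fezf2*-/-, with 0 called by limma and 2 (15.4%, against 16.9% of all genes) at an unadjusted p under 0.05. In *Fezf2-EnR* against *Fezf2*+/+ their median was 0.34, with 0 called by limma and 9 of 13 (69.2%) at an unadjusted p under 0.05, beside 46.3% of the 41 genes and 19.3% of all genes. The 11 genes of ganglionic eminence and GABAergic progenitors had a median of 0.47 there, with 0 called by limma and 6 (54.5%) at that p. The 11 mature-neuron genes had a median of -0.21 in *Fezf2-EnR* against *Fezf2*-/-, with a range of -0.76 to 0.45 and 0 called by limma. At an unadjusted p under 0.05 there were 7 (63.6%, against 31.7% of the 41 genes and 16.9% of all genes), 5 lower and 2 higher. All 5 tested genes of red blood cells were lower in both *Fezf2-EnR* libraries than in every *Fezf2*-/- library (summed 4204 and 4556, against 5110 to 8884), a pattern found in 12.6% of all genes, with a median of -0.64. The summed value of 10 striatal genes was 4204 in *Fezf2*-/- replicate bc204 and 2943 in *Fezf2-EnR* replicate bc208, and 1111 to 1898 in the other 7, and these 2 libraries came next after replicate bc209 in the median over the 41 genes.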

How the data were processed

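Cortex of 9 P0 mice was measured by RNA-seq of poly(A) RNA, 1 library per mouse, in 3 genotypes given by the labels. Per the labels the authors used STAR, Bowtie, DESeq and the mm10 build. The counting tool, its use of strand and the annotation release are not given in the sources used here. The deposited signal is a read count per gene divided by a size factor.

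Values of all 24624 genes were read as deposited. Genes whose mean was 10 or more (16197) entered a limma 3.58.1 fit (lmFit, eBayes with trend, R 4.3.3) on the log2(value + 1) scale, which held all 9 libraries, 1 coefficient per genotype and nothing else. A call meant an adjusted p (Benjamini-Hochberg, all genes tested) under 0.05. Whole reads were recovered, as each library's values were whole multiples of 1 step (100.0% of values within 0.0065), and edgeR 4.0.16 and DESeq2 1.42.0 were run on them as alternatives. Depth was 18716575 to 25127623 reads. Exact permutation tests were two-sided. Exon lengths, positions and overlaps came from GENCODE M21 (GRCm38), and promoters from RefSeq. The scripts were tested on simulated data.

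All 41 members are named in the text. Of each other list the genes called, or else those with the highest levels, are named. The members and the lists were chosen with earlier results of these data known. Alternatives were other pseudocounts, filters and scalings, litter as a block or alone, leaving out each library, and count tests. The comparison of litter m2 with m1, and edgeR with litter, were added after the values of *Mcm6* had been seen. Tables and figures were made with Python 3.11.15, pandas 2.3.3 and matplotlib 3.10.9.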

Additional observations from a re-analysis of the deposited data

Results flagged for a closer look

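A test for a single library that stands apart was run only in the *Fezf2*-/- group, the largest with 4 libraries. There 3 of the 41 genes had 1 library far from the other 3 (Dixon's test at its 95% critical value). In all 3 it was replicate bc204 of litter m3, and it was the highest. *Aurkb* was at 101 there, with the next library at 61.5 (ratio of gap to range 0.888). *Cdc6*, which carries few reads, was at 40.2, with the next at 28.3 (0.839). *Hmmr* was at 91.4, with the next at 67.8 (0.948). Chance flags about 1 in 20 groups, and 41 were tested. The striatal marker genes were also highest in replicate bc204, with a summed value of 4204, and their part in these 3 values was not tested.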

How the results depend on the processing

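No member passed an adjusted p under 0.05 in limma or edgeR with other pseudocounts, filters or scalings, with litter as a block or within a litter. The counts of members called moved, from 0, to 1 in *Fezf2-EnR* against *Fezf2*-/- and 5 in *Fezf2-EnR* against *Fezf2*+/+ with DESeq2, and to 13, 2 (*Fezf2*-/- against *Fezf2*+/+) and 19 with an unadjusted threshold. At that threshold limma found 16.9%, 10.8% and 19.3% of all genes. With each library left out in turn, between 0 and 2 members were called in *Fezf2-EnR* against *Fezf2*-/-, 0 in *Fezf2*-/- against *Fezf2*+/+ and 0 to 1 in *Fezf2-EnR* against *Fezf2*+/+. Calls over all genes moved as well in the first and the last, from 21 and 8 without replicate bc209 to 1088 and 491 without replicate bc208. Members at an unadjusted p under 0.05 were then 0 to 23, 0 to 5 and 4 to 24, and the median log2 fold change was 0.17 to 0.52, -0.01 to 0.12 and 0.23 to 0.58. The low ends of the last 2 measures in the comparisons of the *Fezf2-EnR* group were those without replicate bc209 and the high ends those without replicate bc208. Without *Fezf2*+/+ replicate bc203 there were 12 members at an unadjusted p under 0.05 (20.3% of all genes) in *Fezf2-EnR* against *Fezf2*+/+. In *Fezf2*-/- against *Fezf2*+/+ there were 5 without replicate bc201 (8.70% of all genes) and 0 without replicate bc202 or bc203 (6.92% and 11.2%). Within litter m3 the first comparison had 1 member (5.52% of all genes) at an unadjusted p under 0.05 and a median of 0.18. In *Fezf2*-/- against *Fezf2*+/+ there were 0 such members with litter as a block and 0 within litter m1 (10.2% and 11.4% of all genes). *Mcm6* changed sign within litter m3 (0.10) and, in *Fezf2*-/- against *Fezf2*+/+, without *Fezf2*+/+ replicate bc201 (0.01, with a range of -0.34 to 0.01 over the fits that leave out a library). The cause of these shifts was not tested. Single members were followed under alternatives only where their unadjusted p was under 0.05 in the comparison, and *Mcm6* in each. Of these values, 712 kept their sign and side of the threshold, 9 passed it and 2 changed sign. Members not followed also changed sign without replicate bc209 in *Fezf2-EnR* against *Fezf2*-/-. Among them were *Ccna2* (0.335 to -0.021), *Cdk1* (0.115 to -0.036), *Mcm7* (0.138 to -0.068), *Pcna* (0.006 to -0.115) and *Ccne1* (-0.384 to 0.156).

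Over all genes, DESeq2 called 450, 315 and 641 where limma called 124, 139 and 19 (*Fezf2-EnR* against *Fezf2*-/-, *Fezf2*-/- against *Fezf2*+/+, *Fezf2-EnR* against *Fezf2*+/+).

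No paired analysis was possible because the replicate numbers are not shared between the genotypes, so litter took the place of a pairing. With 2 *Fezf2-EnR* libraries an exact test cannot go below p = 0.067 against *Fezf2*-/- or 0.1 against *Fezf2*+/+, and depth limits the genes of few reads such as *Cdc6*.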

Other observations

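Marker lists of other cell types gave these values beside the 41 genes. In *Fezf2*-/- against *Fezf2*+/+ the 13 radial glia genes had a median log2 fold change of 0.22. Of them, 7 (53.8%, against 10.8% of all genes) were at an unadjusted p under 0.05 and 0 were called by limma. The 11 genes of ganglionic eminence and GABAergic progenitors had a median of 0.44, with 6 (54.5%) and 0. The 6 genes of oligodendrocyte precursors had a median of 0.24 there, with 4 (66.7%) and 0. Glial and GABAergic markers thus had positive medians in a comparison in which the median of the 41 genes was 0.06. The 6 tested genes of intermediate progenitors went the other way there, with a median of -0.13 and 0 of them above 0. Of these, 0 were at an unadjusted p under 0.05 (10.8% of all genes were) and 0 were called by limma. *Pdgfra*, the growth factor receptor of oligodendrocyte precursors, was at 2601, 2183 and 2047 in *Fezf2*+/+, at 2432, 2637, 2912 and 2802 in *Fezf2*-/-, and at 2491 and 2604 in the *Fezf2-EnR* libraries. In *Fezf2-EnR* against *Fezf2*-/- the medians of the lists of radial glia, GABAergic progenitors and oligodendrocyte precursors were 0.09, -0.06 and -0.09, and limma called 0 genes of each. At an unadjusted p under 0.05 there were 2, 3 and 1 (15.4%, 27.3% and 16.7%, against 16.9% of all genes).

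The 9 microglia genes had medians of 0.21 in *Fezf2*-/- against *Fezf2*+/+ and -0.05 in *Fezf2-EnR* against *Fezf2*-/-, and the 11 endothelial and pericyte genes 0.08 and -0.17, with 0 called by limma in either. At an unadjusted p under 0.05 there were 3 and 0 microglia genes (33.3% and 0.00%) and 1 and 1 endothelial and pericyte genes (9.09% in each). Of all genes, 10.8% and 16.9% were at that p. Of 6 tested meningeal fibroblast genes, 1 was called, *Lum*, which encodes the collagen-binding proteoglycan lumican. *Lum* was at 22.8, 17.9 and 17.9 in *Fezf2*+/+, at 3.01, 4.36, 1.04 and 4.15 in *Fezf2*-/-, and at 24.9 and 13.1 in the *Fezf2-EnR* libraries. Its log2 fold change was -2.40 (limma adjusted p = 0.0176) in *Fezf2*-/- against *Fezf2*+/+, which 3 of the 9 fits without 1 library did not call, and 2.30 (limma adjusted p = 0.0426) in *Fezf2-EnR* against *Fezf2*-/-, which none of the 9 called. The abundant collagens of that list, *Col3a1* and *Col1a2*, had log2 fold changes of 0.13 and 0.25 in *Fezf2*-/- against *Fezf2*+/+ and of -0.14 and -0.03 in *Fezf2-EnR* against *Fezf2*-/-. *Ncapd2*, a condensin subunit of the further mitosis genes, had a log2 fold change of 0.81 (SE 0.30, limma adjusted p = 0.223) in *Fezf2-EnR* against *Fezf2*-/-, with 413 to 804 in the 7 libraries without the transgene and 847 and 1558 with it.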
